A study of Mus musculus with 16 samples.

Results

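The genes described here are 10 developmental genes of mouse liver: 4 transcripts of the imprinted Dlk1-Dio3 domain (Meg3, Rian, Mirg and Dlk1), the imprinted genes H19, Igf2, Peg3 and Cdkn1c, and the fetal liver genes Afp and Gpc3. They were taken by exact gene name from the joined count tables, where all 10 were found among 25803 genes. The set was chosen by name with measured expression changes of these libraries in view, and which of the contrasts drew attention to it is not recorded. Fold changes and adjusted p-values below therefore give each gene's place in a fit of the whole table and are no independent evidence. A filter on low counts was passed by 14488 genes, and 7 of the 10 were among them. Mirg, Dlk1 and Igf2 fell under it.

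The study sequenced RNA from whole liver of male mice that had eaten a high-fat diet for 12 weeks. Mice were of control genotype or lacked Cpt1a in the liver (CPT1a LKO, here LKO), and Cpt1a encodes the enzyme that admits long-chain fatty acids to the mitochondrion. Mice were fasted for 16 h, and some then ate again for 6 h. Each of the 4 groups has 4 libraries: the fasted groups are S40 to S43 for control and S44 to S47 for LKO, and the refed groups are S48 to S51 for control and S52 to S55 for LKO. All groups shared the diet. The age of the mice and the way the knockout was made are not given in the sources used here, and the labels do not say that each library is a separate animal, so p-values measure the spread between these samples.

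In imprinted genes only the copy from 1 parent is active. In the Dlk1-Dio3 domain the maternal chromosome gives the long noncoding RNAs Meg3, Rian and Mirg, which host small nucleolar RNAs and microRNAs, and the paternal chromosome gives the protein-coding genes Dlk1 and Dio3. On another chromosome the maternal copy gives H19 and Cdkn1c and the paternal copy Igf2. Many of these genes are active in fetal tissues and fall to low levels in adult liver, as do Afp and Gpc3.

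The promoter sequences of Meg3 and Peg3 are shown because they hold the palindrome of the cAMP response element, TGACGTCA, printed in capitals. Windows were found for 8 of the 10 genes, and no other of these windows held it. Both genes were called higher in fasted LKO liver, as was Rian, whose window does not hold it. A link between the palindrome and these calls was not tested. Each sequence is the stretch of 250 bases before the gene's start in RefSeq on GRCm38.p6, 5′ to 3′ on the gene's own strand, at chr12:109540746-109540995 on the plus strand for Meg3 and chr7:6730420-6730669 on the minus strand for Peg3.
Meg3: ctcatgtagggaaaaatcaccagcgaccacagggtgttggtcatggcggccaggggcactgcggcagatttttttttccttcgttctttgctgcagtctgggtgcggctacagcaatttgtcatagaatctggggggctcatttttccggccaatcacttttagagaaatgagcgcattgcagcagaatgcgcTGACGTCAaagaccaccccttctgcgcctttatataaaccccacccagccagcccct
Peg3: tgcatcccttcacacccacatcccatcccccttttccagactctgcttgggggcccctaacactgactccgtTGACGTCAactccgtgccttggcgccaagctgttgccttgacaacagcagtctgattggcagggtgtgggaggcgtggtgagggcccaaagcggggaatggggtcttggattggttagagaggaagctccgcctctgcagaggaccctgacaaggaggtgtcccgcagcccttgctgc

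The first base of the palindrome lay 57 bases before the start of Meg3 and 178 bases before that of Peg3. RefSeq windows of 300 bases (250 before and 50 after a start) were matched for 8 of the 10 genes, some with several starts, and TGACGTCA was searched in them on both strands. Of these genes' 12 windows, 2 held it, beside 1.79% of all 32851 windows. The second window of Meg3 did not hold it. The shorter motif TGACG, which lies inside the palindrome, was in 5 of the 12 windows and in 20.8% of all windows. The motif TATAAA was also searched, and was in 2 of the 12 windows and in 13.6% of all windows. A match describes these letters and is not a measured binding site.

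Mature microRNAs encoded within the noncoding RNAs of the domain show what these transcripts carry. RefSeq places 18 hairpins with 35 mature microRNAs inside the 3 host genes on GRCm38, of which 1 hairpin lies in Meg3, 3 in Rian and 14 in Mirg. The seed, bases 2 to 8, is in capitals. The first of the following lies in Meg3, the second in Rian and the others in Mirg.
mmu-miR-770-5p: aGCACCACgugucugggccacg
mmu-miR-370-3p: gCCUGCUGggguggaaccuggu
mmu-miR-134-5p: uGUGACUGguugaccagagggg
mmu-miR-410-3p: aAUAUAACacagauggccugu
mmu-miR-496a-5p: aGGUUGCCcaugguguguuca
mmu-miR-453: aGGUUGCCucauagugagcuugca

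The last pair shares the seed GGUUGCC, the only seed held by more than 1 of the 35. The libraries were made from poly-A RNA, so the microRNAs themselves were not measured and only their host transcripts were.

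Library totals ran from 14721601 to 24618230 counts. CPM is a gene's count per M (mega) counts of its library after scaling by TMM factors, and log2 fold changes are from edgeR's quasi-likelihood fit with Benjamini-Hochberg adjustment over all 14488 genes. Cpt1a, the targeted gene, was at 378 to 556 CPM in fasted control and 86.1 to 126 CPM in fasted LKO libraries, and at 319 to 620 CPM in refed control and 39.9 to 75.2 CPM in refed LKO libraries. Its groups did not overlap in either state, as the labels state. Albumin stood between 33763 and 62960 CPM in all 16 libraries, so the defining transcript of hepatocytes was present in each. Its mean was lower in LKO, at 39508 against 48203 CPM fasted and 45276 against 56282 CPM refed, with overlapping ranges. Of 12 hepatocyte markers 9 were lower in LKO in each state, with median log2 differences of -0.25 fasted and -0.22 refed. In fasted LKO 3 were called lower (Asgr1, Ttr and Serpina1c) and 1 higher (Tdo2), where 12.2% of all genes were called. Each of these calls was lost in some alternative settings, and 0 were called in refed LKO. All CPM of the 10 genes were near or below 20, so that counting error limits them.

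Meg3 and Rian were higher in LKO liver in both feeding states, and within LKO livers both were called higher in the refed than in the fasted group, Meg3 narrowly. Mirg followed the same order of groups at a few counts per library. Dlk1, from the other parental chromosome, stayed at 9 counts or fewer in every library.

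Meg3 lies at chr12:109506879-109538165 on the plus strand in the deposited coordinates (mm39), as a long noncoding RNA with 19071 exonic bases (ENSMUSG00000021268). It is a nuclear RNA that is widely studied as a growth-restraining transcript. Its counts were 38, 18, 23 and 6 in the fasted control libraries and 186, 100, 87 and 103 in the fasted LKO libraries. In the refed state they were 29, 12, 21 and 23 in control and 239, 257, 94 and 488 in LKO. Every LKO library stood above every control library, and the highest value was in S55.

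Mean Meg3 levels were 1.19 ± 0.644 CPM in fasted control and 6.55 ± 1.92 CPM in fasted LKO (SD, n = 4). The fitted log2 difference was 2.43 (SE 0.44), or 5.41-fold, with an adjusted p of 0.0023 by edgeR. Only 38 of the 14488 genes had a larger fitted rise in that contrast. In refed livers the means were 1.22 ± 0.578 CPM in control and 14 ± 6.56 CPM in LKO. Here the log2 difference was 3.57 (SE 0.44), or 11.8-fold, with an adjusted p of 0.000412 by edgeR, the 13th smallest p of all genes tested. Meg3 in fasted and refed LKO stayed called in all 23 alternative settings tried for each.

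Rian, a long noncoding RNA of 31981 exonic bases that hosts small nucleolar RNAs and microRNAs, lies downstream of Meg3 at chr12:109570242-109628150 on the same strand (ENSMUSG00000097451). It had 11, 0, 3 and 2 counts in fasted control and 28, 25, 13 and 22 in fasted LKO libraries. In refed livers it had 4, 4, 8 and 0 counts in control and 105, 72, 25 and 221 in LKO. The groups did not overlap in either state, and S55 was again the highest library.

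Rian differed by 2.4 on the log2 scale between fasted LKO and control (SE 0.7, adjusted p = 0.0337 by edgeR) and by 4.62 between refed LKO and control (SE 0.65, adjusted p = 0.00103). The refed rise was the 14th largest of all genes tested. No control library and all 8 LKO libraries were past the level the filter asks for (0.564 CPM), so Rian could enter the fit only by being high in LKO. The fasted call was lost when S41, S42, S43, S44, S45 or S47 was left out (adjusted p = 0.0549 to 0.0846) and with limma-voom (adjusted p = 0.115). The refed call stayed in all 22 alternatives.

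Mirg, the host of the large microRNA cluster at the far end of the domain (chr12:109696198-109715894, ENSMUSG00000097391), had 0, 0, 1 and 0 counts in fasted control and 5, 4, 5 and 5 in fasted LKO libraries. It had 2, 1, 0 and 1 counts in refed control and 6, 8, 6 and 40 in refed LKO. Each LKO library exceeded each control library of its state. The ratio of summed counts per depth was 18.4 in the fasted state (95% counting interval 2.92 to 764) and 15.0 in the refed state (5.58 to 57.0). S55 gave 40 of the 60 refed LKO counts, and without it the refed ratio was 7.29 (2.44 to 29.3). These intervals cover counting error only. In a fit without the filter Mirg was called in both states, with log2 differences of 3.66 (SE 1.03, adjusted p = 0.0384 by edgeR) and 3.61 (SE 0.76, adjusted p = 0.0154).

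Dlk1, at chr12:109418749-109429262 (ENSMUSG00000040856), encodes a membrane protein with EGF-like repeats that restrains fat cell maturation. It had 0, 0, 5 and 0 counts in fasted control, 6, 2, 1 and 9 in fasted LKO, 1, 0, 0 and 3 in refed control and 5, 0, 3 and 5 in refed LKO. The groups overlapped in both states. Summed counts gave LKO over control ratios of 3.48 (95% counting interval 1.25 to 12.0) fasted and 3.26 (1.01 to 13.7) refed. The fit without the filter did not call them (adjusted p = 0.475 and 0.646 by edgeR), so a difference was not established at this depth.

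**Figure D1:**
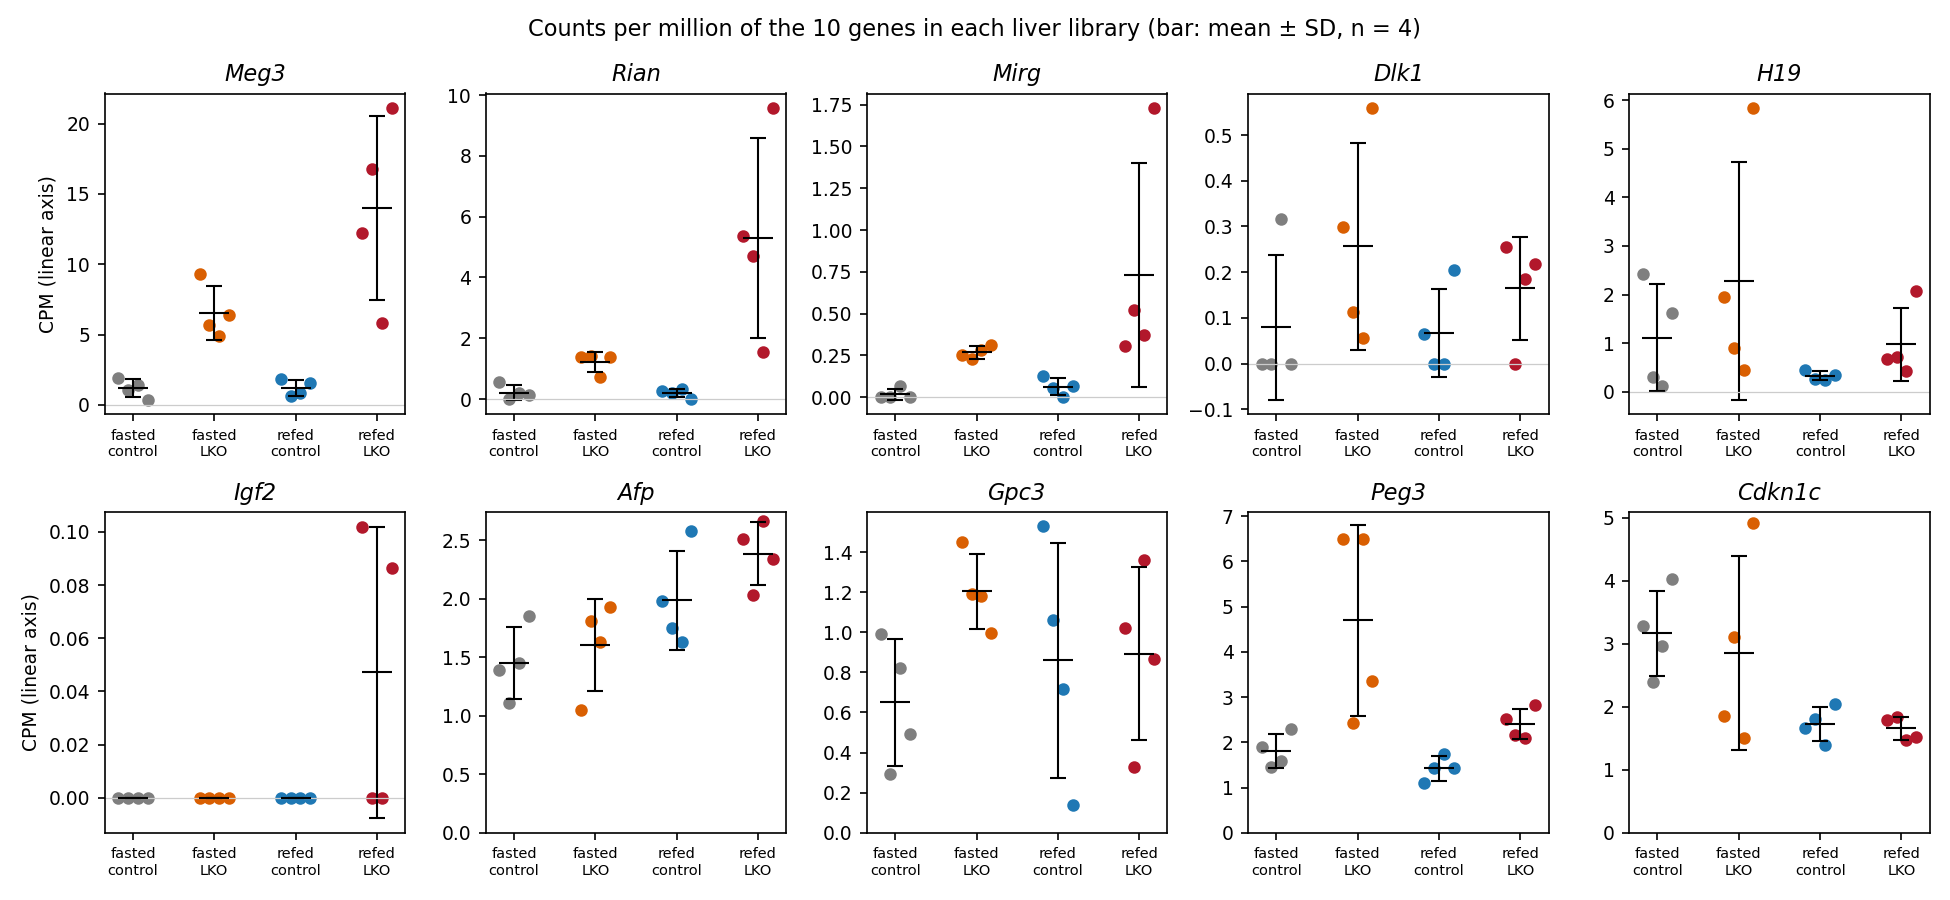
CPM of each of the 10 genes in each library (points), with group mean and SD (n = 4), on a linear axis of its own in each panel. For Meg3 and Rian every LKO point stands above every control point of the same feeding state, while the groups of Afp and Cdkn1c overlap between genotypes.

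The deposited tables list 13 genes from Dlk1 to Dio3, and 5 of them passed the filter. Gm34667, a long noncoding RNA on the minus strand at chr12:109943803-109990307, was chosen for naming after its values were seen. It rose from 5.2 to 10.4 CPM in fasted LKO (log2 difference 0.99, SE 0.26, adjusted p = 0.0198 by edgeR) and from 3.08 to 6.38 CPM in refed LKO (1.03, SE 0.27, adjusted p = 0.0462). The groups did not overlap in either state. The fasted call was lost without S42, S43 or S46, and the refed call in 15 of 23 alternatives (adjusted p up to 0.145). Dio3os, transcribed beside Dio3, went the other way without passing the test, at -0.8 (SE 0.62, adjusted p = 0.452) fasted and -1.37 (SE 0.69, adjusted p = 0.309) refed. The pseudogene Gm3379 summed to 110, 114, 151 and 151 counts over the 4 groups. Higher counts in LKO were thus found for some transcripts of the interval and not for others.

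**Figure D2:**
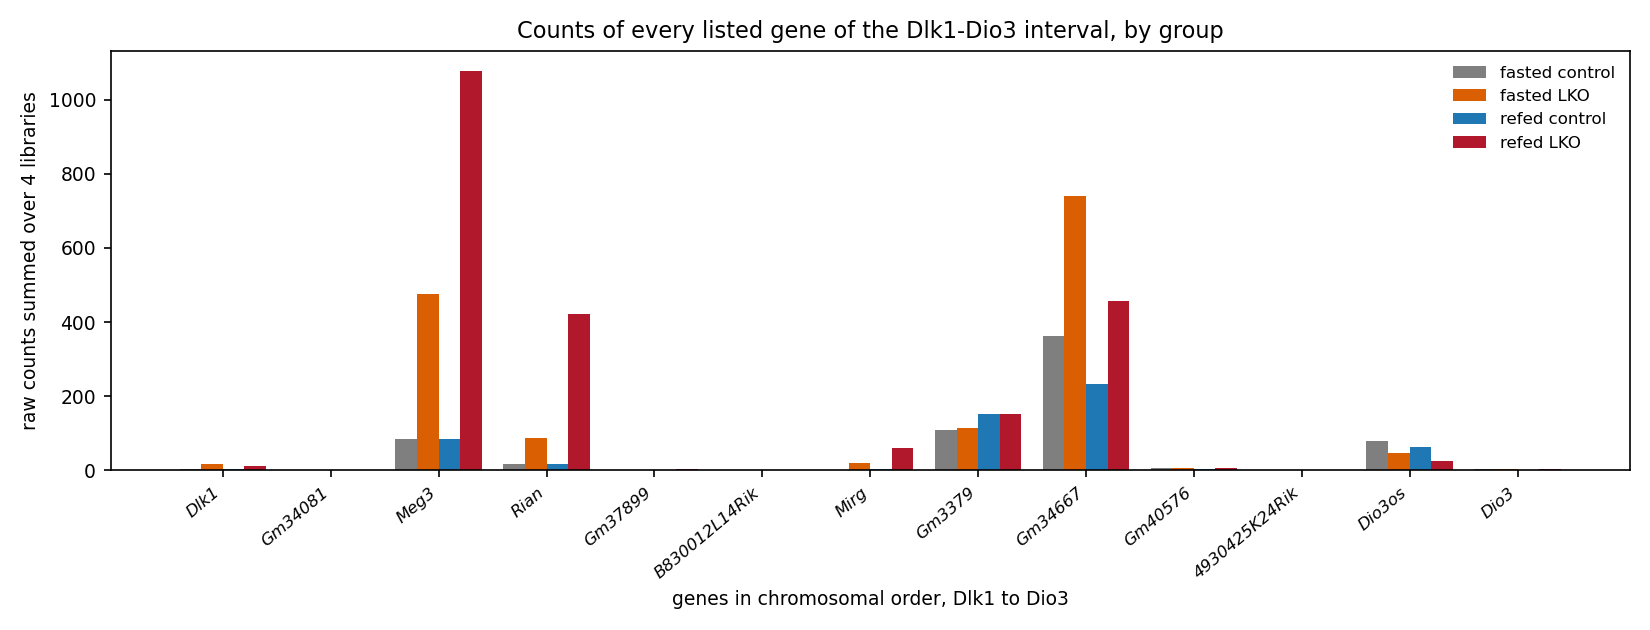
Raw counts summed over the 4 libraries of each group for every listed gene from Dlk1 to Dio3, in chromosomal order. Meg3 and Rian reach 1078 and 423 counts in refed LKO against 85 and 16 in refed control, and Gm3379 lies between 110 and 151 in every group.

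A list of flanking genes and further genes of the domain, which does not hold Gm34667, had 8 genes in the tables and 5 tested. Within that list Ppp2r5c, a phosphatase regulatory subunit, was called, 0.36 higher on the log2 scale in fasted LKO (SE 0.09, adjusted p = 0.0119 by edgeR). The median log2 difference of the 5 was 0.04 fasted and 0.02 refed, beside 0.02 and -0.01 over all genes.

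The proportion of Rian to Meg3 was not the same in all LKO livers. Rian made up 13% to 20% of the summed Meg3 and Rian counts in the 4 fasted LKO libraries and 21.0% to 31.2% in the 4 refed LKO libraries, which did not overlap. Pooled over libraries the shares were 15.6% and 28.2%. In controls the pooled share was 15.8% in each state, with single libraries from 0% to 27.6% on 8 to 49 counts. The 2 refed LKO libraries with the highest shares were S52 at 30.5% (95% Wilson interval 25.9% to 35.6%) and S55 at 31.2% (27.9% to 34.7%). This pattern was noticed in these libraries and is given without a test.

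**Figure D3:**
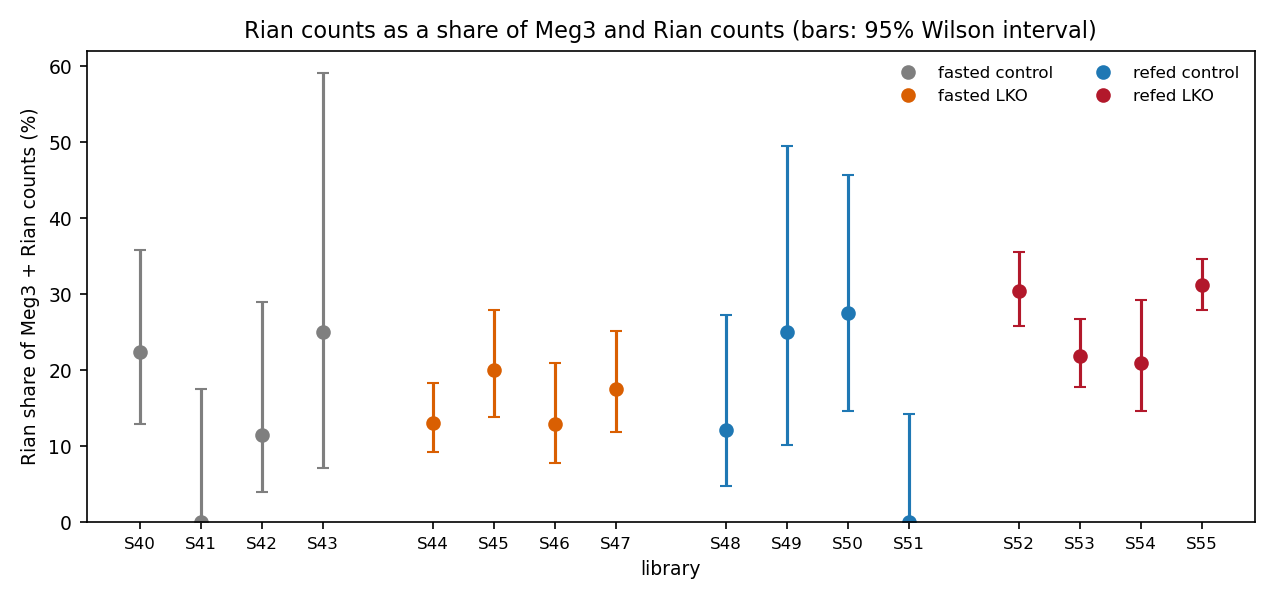
Rian counts as a percentage of Meg3 and Rian counts in each library, with 95% Wilson intervals that cover counting error only. The refed LKO libraries lie at 21.0% to 31.2% and the fasted LKO libraries at 13% to 20%, and the control intervals are wide. The intervals of S45 (fasted LKO) and S54 (refed LKO) overlap.

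Peg3 encodes a zinc finger protein expressed from the paternal chromosome (chr7:6706891-6733430, ENSMUSG00000002265). Its counts were 38, 25, 25 and 37 in fasted control, 130, 43, 116 and 54 in fasted LKO, 17, 27, 44 and 21 in refed control and 49, 33, 34 and 65 in refed LKO. At 1.46 to 2.29 CPM in fasted control and 2.43 to 6.5 CPM in fasted LKO the groups did not overlap, and S44 and S46 were the highest LKO libraries. The log2 difference was 1.38 (SE 0.28, adjusted p = 0.00502 by edgeR) in fasted livers. In refed livers the groups, at 1.09 to 1.75 and 2.1 to 2.82 CPM, also stood apart, but the log2 difference of 0.74 (SE 0.3) did not pass the test (adjusted p = 0.184). The fasted call stayed in all 22 alternatives.

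H19, a noncoding RNA abundant in fetal liver (chr7:142129262-142131886, ENSMUSG00000000031) had 49, 5, 2 and 26 counts in fasted control, 39, 16, 8 and 94 in fasted LKO, 7, 5, 6 and 5 in refed control and 13, 11, 7 and 48 in refed LKO. The counts were spread widely in every group but refed control, and the genotypes overlapped in both states. The H19 log2 difference was 0.99 (SE 0.75, adjusted p = 0.435 by edgeR) fasted and 1.66 (SE 0.91, adjusted p = 0.355) refed. Without S47, which held 94 of the 157 fasted LKO counts, the fasted value was -0.03. Igf2, the fetal growth factor gene that lies beside H19 (chr7:142204503-142220553, ENSMUSG00000048583), had 0 counts in 14 libraries and 2 each in S52 and S55.

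Cdkn1c encodes p57, an inhibitor of cyclin-dependent kinases (chr7:143012076-143014787, ENSMUSG00000037664). Its counts were 66, 41, 47 and 65 in fasted control, 37, 55, 27 and 79 in fasted LKO, 26, 34, 35 and 30 in refed control and 35, 28, 24 and 35 in refed LKO. Genotypes overlapped in both states, at log2 differences of -0.16 (95% interval -0.73 to 0.41, adjusted p = 0.773 by edgeR) and -0.05 (-0.66 to 0.56, adjusted p = 0.96).

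Afp encodes the albumin-like serum protein of the fetus, alpha-fetoprotein (chr5:90638596-90656766, ENSMUSG00000054932). It had 28, 19, 23 and 30 counts in fasted control, 21, 32, 29 and 31 in fasted LKO, 31, 33, 41 and 38 in refed control and 49, 31, 43 and 54 in refed LKO. The genotypes overlapped in both states, and the log2 differences were 0.14 (95% interval -0.32 to 0.6, adjusted p = 0.759 by edgeR) and 0.27 (-0.16 to 0.71, adjusted p = 0.557). An Afp difference as large as that of Meg3 lay outside both intervals.

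Gpc3, an X-linked gene for a cell-surface heparan sulfate proteoglycan that is used as a marker of liver cancer (chrX:51361303-51702827, ENSMUSG00000055653), had 20, 5, 13 and 8 counts in fasted control and 29, 21, 21 and 16 in fasted LKO. In refed livers it had 24, 20, 18 and 2 counts in control and 20, 5, 22 and 20 in LKO. In CPM the fasted groups just missed each other, at 0.292 to 0.993 and 0.995 to 1.45, and the log2 difference of 0.87 (SE 0.5) did not pass the test (adjusted p = 0.284 by edgeR). The refed groups overlapped, at 0.06 (SE 0.49, adjusted p = 0.971).

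In all, 3 of the 7 genes tested were called in fasted livers (Meg3, Rian and Peg3, all higher in LKO), where 12.2% of all genes were called and 5.75% were called higher. In refed livers 2 of 7 were called (Meg3 and Rian, higher in LKO), where 3.63% of all genes were called and 2.28% were called higher. LKO libraries lay wholly above control libraries for 4 of the 7 in fasted livers (Gpc3 in addition) and for 3 of the 7 in refed livers (Meg3, Rian and Peg3). That pattern was found in 8.3% and 6.7% of all genes. None of the 7 was called lower. Rian entered these counts only through its LKO libraries, so its place among the calls was favoured by the filter. Without it 2 of 6 were called in fasted and 1 of 6 in refed livers. H19, which is among these 6, also needed LKO libraries to pass the filter. It was past 0.564 CPM in 2 fasted control, 0 refed control, 3 fasted LKO and 3 refed LKO libraries. H19 was not called in either state.

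**Figure D4:**
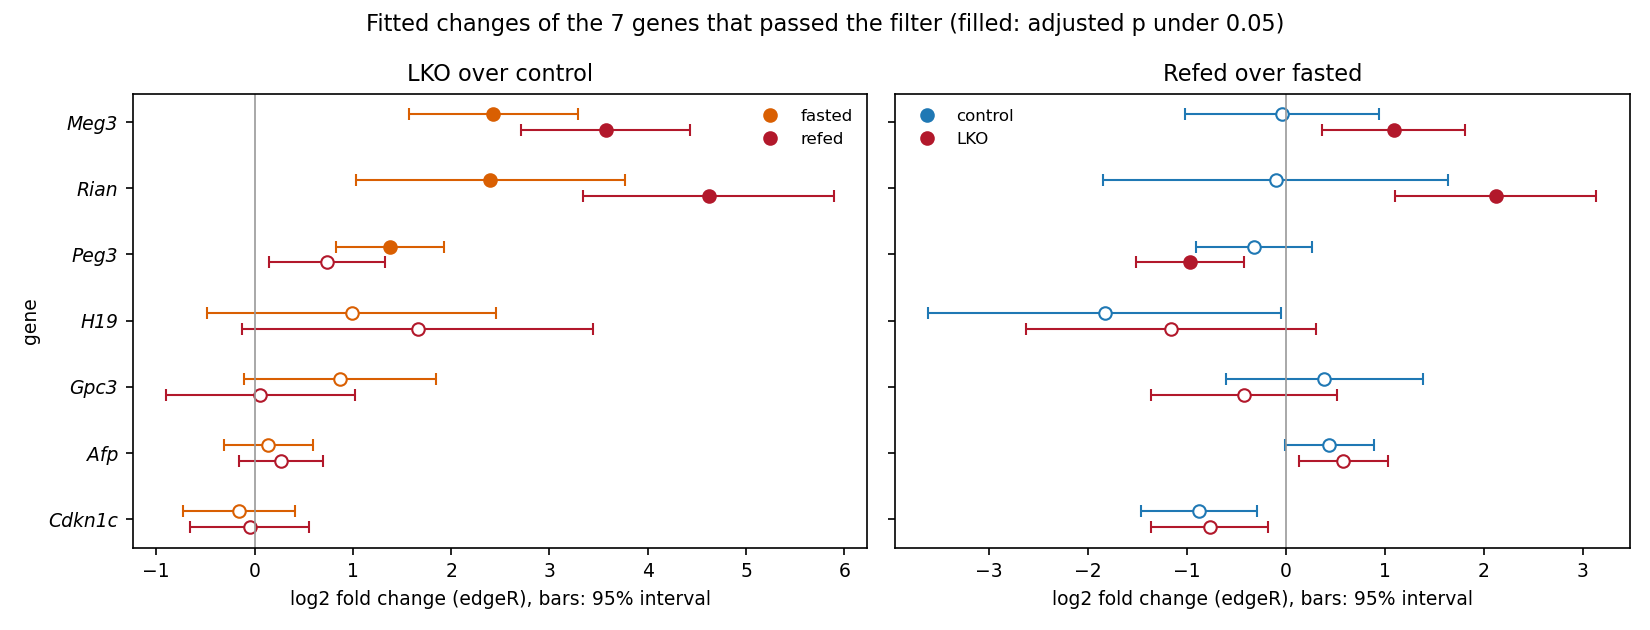
Log2 fold changes of the 7 genes that passed the filter, with 95% intervals as bars, for LKO over control in each feeding state (left) and refed over fasted in each genotype (right). Filled points have an adjusted p under 0.05. Meg3 and Rian are filled in both states on the left, and the points of Afp, Cdkn1c, Gpc3 and H19 are open in all 4 comparisons.

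Refed and fasted livers were then compared within each genotype. In control livers 0 of the 7 genes were called between refed and fasted by edgeR, where 15.4% of all genes were called, and 1 had an unadjusted p under 0.05. That gene, Cdkn1c, was at 1.39 to 2.04 CPM in refed and 2.39 to 4.02 CPM in fasted control, without overlap. Non-overlapping lower levels were found in 10.1% of all genes. Its log2 difference was -0.88 (SE 0.3, adjusted p = 0.0563 by edgeR), and DESeq2 called it (adjusted p = 0.0302), as did edgeR on the control libraries alone (adjusted p = 0.0258) or without S44, S46 or S47 (adjusted p = 0.02 to 0.0476). In LKO livers Cdkn1c differed by -0.77 (SE 0.3, adjusted p = 0.0897), which passed only without S46 (adjusted p = 0.0276). Meg3 and Rian differed by -0.04 (SE 0.5) and -0.1 (SE 0.89) in control livers.

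In LKO livers 3 of the 7 genes were called between refed and fasted, where 18.1% of all genes were called, 9.28% higher and 8.78% lower. Rian was 4.34-fold higher after refeeding (log2 difference 2.12, SE 0.52, adjusted p = 0.00959 by edgeR), with no overlap between 0.729 to 1.41 CPM fasted and 1.54 to 9.57 CPM refed. Without S55 it was not called (adjusted p = 0.0556). Meg3 was higher by 1.09 (SE 0.37, adjusted p = 0.0497 by edgeR), with overlapping groups, since S54 at 5.81 CPM lay below 2 fasted LKO libraries. The Meg3 call was lost in 15 of 23 alternatives, with an adjusted p of 0.184 without S55 and up to 0.12 without S41, S42, S45, S46, S47, S48, S50, S51, S52 or S53. Mirg had a refed over fasted ratio of 3.05 (95% counting interval 1.8 to 5.42), or 1.48 (0.749 to 2.93) without S55.

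Peg3 went the other way in LKO livers and fell by 0.97 on the log2 scale with refeeding (SE 0.28, adjusted p = 0.0226 by edgeR), though S45 of the fasted group, at 2.43 CPM, lay within the refed range of 2.1 to 2.82 CPM. That call was lost without S44, S46, S52, S53 or S54 (adjusted p up to 0.0838) and with LKO libraries alone (adjusted p = 0.0665). Afp was 1.05 to 1.93 CPM fasted and 2.03 to 2.66 CPM refed in LKO, without overlap, at a log2 difference of 0.58 (SE 0.23) that did not pass the test (adjusted p = 0.0889). Rian and Afp were the 2 genes with wholly higher refed LKO libraries, a pattern found in 10.6% of all genes.

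An interaction term tested whether the genotype difference itself changed with feeding. Of the 7 genes 0 were called by edgeR, where 0.538% of all genes were called, and 0 of the 7 had an unadjusted p under 0.05. The difference between the refed and fasted effects was 1.13 (SE 0.63, adjusted p = 0.386) for Meg3, 2.22 (SE 1.05, adjusted p = 0.305) for Rian and -0.64 (SE 0.41, adjusted p = 0.459) for Peg3. DESeq2 and limma-voom called 0 as well. The larger rises of Meg3 and Rian in refed than in fasted LKO were therefore not shown to differ by this test. The comparisons within a feeding state and within a genotype share libraries.

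Levels of different genes were compared as CPM per kilobase of the deposited gene length. In fasted control livers Cdkn1c stood highest at 1.55 ± 0.331, followed by Afp at 0.431 ± 0.0911, H19 at 0.424 ± 0.419, Gpc3 at 0.242 ± 0.117, Peg3 at 0.132 ± 0.0271 and Meg3 at 0.0624 ± 0.0338 CPM per kilobase (SD, n = 4). Afp and H19 did not differ beyond their spread, nor did H19 and Gpc3. In refed LKO livers Cdkn1c at 0.812 ± 0.0888, Meg3 at 0.734 ± 0.344 and Afp at 0.707 ± 0.0802 CPM per kilobase were the highest of the 10 and were within each other's spread. Meg3 thus moved from the sixth to the second place in this order. Rian, over its long exonic length, was at 0.00672 ± 0.00733 CPM per kilobase in fasted control and 0.166 ± 0.103 in refed LKO. Mirg was at 0.101 ± 0.0922 CPM per kilobase in refed LKO.

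Other imprinted genes did not follow Meg3 as a group. Of 40 listed, 30 were tested, and their median log2 difference was 0.09 in fasted and -0.05 in refed livers. Whether each is expressed from only 1 parental copy in liver was not measured. In fasted LKO 2 were called higher and 5 lower, and in refed LKO 1 higher and 2 lower. Over all genes 12.2% were called in fasted and 3.63% in refed livers. Those called higher in fasted LKO were Zrsr1 (0.51, SE 0.13, adjusted p = 0.0177 by edgeR, lost without S42) and Dcn (0.36, SE 0.11, adjusted p = 0.0413). In refed LKO it was Cobl (0.61, SE 0.15, adjusted p = 0.0361), a call lost in 8 of 23 alternatives. Of the genes called lower, 4 follow. Slc22a3, an organic cation transporter, was lower by 1.09 (SE 0.22, adjusted p = 0.00408 by edgeR) fasted and by 1.29 (SE 0.22, adjusted p = 0.00442) refed. Gnas, which encodes the stimulatory G protein alpha subunit, fell by 0.53 (SE 0.1, adjusted p = 0.00298) and Snrpn, a splicing protein gene, fell by 0.8 (SE 0.19, adjusted p = 0.0123) in fasted LKO. H13, a signal peptide peptidase gene, fell by 0.45 in fasted LKO (SE 0.08, adjusted p = 0.00202). Grb10, Igf2r and Mest were not called in any of the 4 comparisons.

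Further fetal and oncofetal genes were mostly not called. Of 19 listed, 11 were tested. In fasted LKO Golm1, which encodes a Golgi protein released in liver disease, rose from 0.636 to 1.86 CPM (log2 difference 1.55, SE 0.35, adjusted p = 0.00893 by edgeR). Ahsg, the gene of the serum protein fetuin-A, fell by 0.5 (SE 0.11, adjusted p = 0.00908). None was called in refed LKO by edgeR. Over all genes 12.2% were called in fasted and 3.63% in refed livers. The median log2 difference of the list was 0.75 fasted and -0.02 refed, beside 0.02 and -0.01 over all genes.

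The fasted median of that list rested on S44. Cholangiocyte and progenitor markers, which share Epcam, Prom1 and Tspan8 with it, had a median of 0.84, with 8 of 10 higher in fasted LKO and 0 called by edgeR. Krt19, a bile duct keratin, was at 29.0 CPM in S44 and at 1.12 to 1.24 CPM in the other 3 fasted LKO libraries. Cd24a, a progenitor surface protein gene, was at 20.4 CPM in S44 and 1.8 to 2.89 CPM in the others. Without S44 the medians were -0.26 for the fetal list and -0.18 for the cholangiocyte list, an alternative chosen after the data were seen. S44 was also the fasted LKO library with the most Meg3, and Meg3 kept its fasted call without S44.

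Genes for factors known to hold the fetal programme down in adult liver, or to act on DNA methylation, were called in both directions. Of 24 tested, 1 was called in each direction in each feeding state, which is 2 of 24 beside 12.2% of all genes in fasted and 3.63% in refed livers. In fasted LKO the calls were Hif1a, the hypoxia factor gene, higher by 0.44 (SE 0.08, adjusted p = 0.00359 by edgeR), and Cebpb, a liver transcription factor gene, at -0.76 (SE 0.24, adjusted p = 0.0481), a call lost in 14 of 23 alternatives. In refed LKO they were Dnmt1 and Zhx3. Zhx3, a relative of Zhx2, fell by 0.3 (SE 0.07, adjusted p = 0.0323), a call lost in 10 of 23 alternatives. Zhx2, known to repress Afp, H19 and Gpc3 after birth, stood at -0.2 (SE 0.11, adjusted p = 0.234 by edgeR) and -0.25 (SE 0.11, adjusted p = 0.219). Zbtb20, another repressor of Afp, stood at -0.39 (SE 0.13, adjusted p = 0.0555) and -0.24 (SE 0.13, adjusted p = 0.335). Neither Zhx2 nor Zbtb20 was called.

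Dnmt1, the maintenance DNA methyltransferase that copies imprints through replication, rose by 0.65 (SE 0.12, adjusted p = 0.00818 by edgeR) in refed LKO over refed control and by 0.77 (SE 0.12, adjusted p = 0.000519) in refed over fasted LKO. Dnmt3a, a methyltransferase that sets new marks, fell by 0.7 (SE 0.16, adjusted p = 0.00737) in refed over fasted LKO. Dnmt3b, of the same kind, rose by 1.3 (SE 0.31, adjusted p = 0.0114) in refed over fasted control. DNA methylation was not measured, and Ctcf, Trim28 and Zfp57, which act at imprinting control regions, were not called in any of the comparisons.

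Among 12 genes of the insulin-like growth factor receptors and binding proteins, 1 was called higher and 1 lower in fasted LKO and 0 in refed LKO. Beside this, 12.2% of all genes were called in fasted and 3.63% in refed livers. Igfbp4 fell by 0.63 in fasted LKO (SE 0.09, adjusted p = 0.000753 by edgeR). Igfbp1, a binding protein that insulin lowers, was the gene called higher, from 32.9 ± 6.95 CPM in fasted control to 104.0 ± 70.6 CPM in fasted LKO (SD, n = 4; log2 difference 1.66, SE 0.49, adjusted p = 0.0352 by edgeR), a call lost in 8 of 23 alternatives. It fell by 2.53 with refeeding in LKO (SE 0.51, adjusted p = 0.00272). Igf2r, the receptor that clears Igf2, was not called, at 0.22 (SE 0.1, adjusted p = 0.171) fasted and 0.12 (SE 0.1, adjusted p = 0.57) refed.

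Proliferation genes were higher in refed LKO livers, the group with the highest Meg3 and Rian. Of 19 tested, 10 were called higher there by edgeR, where 2.28% of all genes were called higher. The median log2 difference was 1.19, beside -0.01 over all genes. The replicative helicase gene Mcm5 was at 2.76 (SE 0.36, adjusted p = 0.000702 by edgeR). Calls of Cdk1, Top2a and Pcna were lost in 9 of 22, 7 of 22 and 6 of 23 alternatives, and the other calls stayed in all. In fasted LKO 0 of 19 were called, with a median of -0.02, where 12.2% of all genes were called. The summed level of the list was 67.6 to 91.3 CPM in fasted LKO and 69.7 to 75.2 CPM in fasted control. In refed LKO the list summed to 372, 145, 170 and 258 CPM in S52 to S55, beside 12.2, 16.8, 5.81 and 21.1 CPM of Meg3. The part of proliferation in the refed result was not tested.

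In bulk tissue, fewer cells of a type and less RNA per cell cannot be told apart, so markers of the other liver cell types were summed in each library. Stellate cell and fibroblast markers (16 genes) gave 373 to 541 CPM in fasted control, 429 to 563 in fasted LKO, 395 to 569 in refed control and 373 to 456 in refed LKO. Of these 16, 9 were higher in fasted LKO and 14 were lower in refed LKO, where 0 were called. Dcn, a matrix proteoglycan gene that is also on the list of imprinted genes, was called higher in fasted LKO (0.36, SE 0.11, adjusted p = 0.0413 by edgeR, lost in 10 of 23 alternatives). Endothelial markers (15 genes) gave 414 to 500, 431 to 483, 339 to 515 and 413 to 514 CPM in the same order. In refed LKO 9 of 15 were higher and Clec4g, a lectin gene of sinusoidal endothelium, was called (0.44, SE 0.11, adjusted p = 0.0388), a call lost in 8 of 23 alternatives. The sums of both lists overlapped between genotypes in each state. These calls stand beside 12.2% of all genes called in fasted and 3.63% in refed livers.

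Lymphocyte markers summed to 9.75 to 14.9 CPM in fasted control, 12.7 to 20.1 in fasted LKO, 8.15 to 16.0 in refed control and 12.3 to 19.4 in refed LKO. All 8 tested were higher in fasted LKO and 7 of 8 in refed LKO, and 0 were called by edgeR. The sums of S44, S45 and S47 in fasted LKO, at 20, 16.7 and 20.1 CPM, and of S54 in refed LKO, at 19.4 CPM, were above those of all 8 control libraries.

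Immunoglobulin heavy chains, the products of plasma cells, were not in the lymphocyte list and were higher in the same groups as Meg3. Igha was at 1.01 to 5.71 CPM in fasted control, 9.98 to 37.8 in fasted LKO, 0.716 to 3.58 in refed control and 16.0 to 57.5 in refed LKO. Its log2 difference was 3.1 (SE 0.58, adjusted p = 0.00281 by edgeR) fasted and 4.41 (SE 0.6, adjusted p = 0.000934) refed. Ighg2c was at 0.0618 to 3.27 CPM in fasted control, 21.6 to 122.0 in fasted LKO, 0.318 to 1.21 in refed control and 55 to 126 in refed LKO. Its log2 difference was 5.11 (SE 0.62, adjusted p = 0.000238) fasted and 7.1 (SE 0.7, adjusted p = 0.000139) refed. The genotypes did not overlap for either gene in either state, as for Meg3, and the fitted differences were larger than those of Meg3. Both genes headed the ranking by likeness to Meg3 given below (r of 0.91 each). A group pattern like that of Meg3 is therefore no separate evidence. All 4 calls stayed in all 23 alternatives. Heavy chain genes are a family of similar copies, so the assignment of reads among them is uncertain.

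Resident macrophage markers were lower in refed LKO for 10 of 10 genes, with 0 called. Of 7 adipocyte markers only 3 passed the filter on low counts. The 7 summed to 172 to 409 CPM in fasted LKO and 66.9 to 154 CPM in fasted control, without overlap. In fasted LKO Cidec, a lipid droplet protein that fatty hepatocytes also make, was higher by 2.2 (SE 0.5, adjusted p = 0.00984 by edgeR). Cfd, the adipocyte product adipsin, was lower by 3.45 (SE 0.88, adjusted p = 0.0182), a call lost without S44 or S46. The part of these cell types in the results was not tested.

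**Figure D5:**
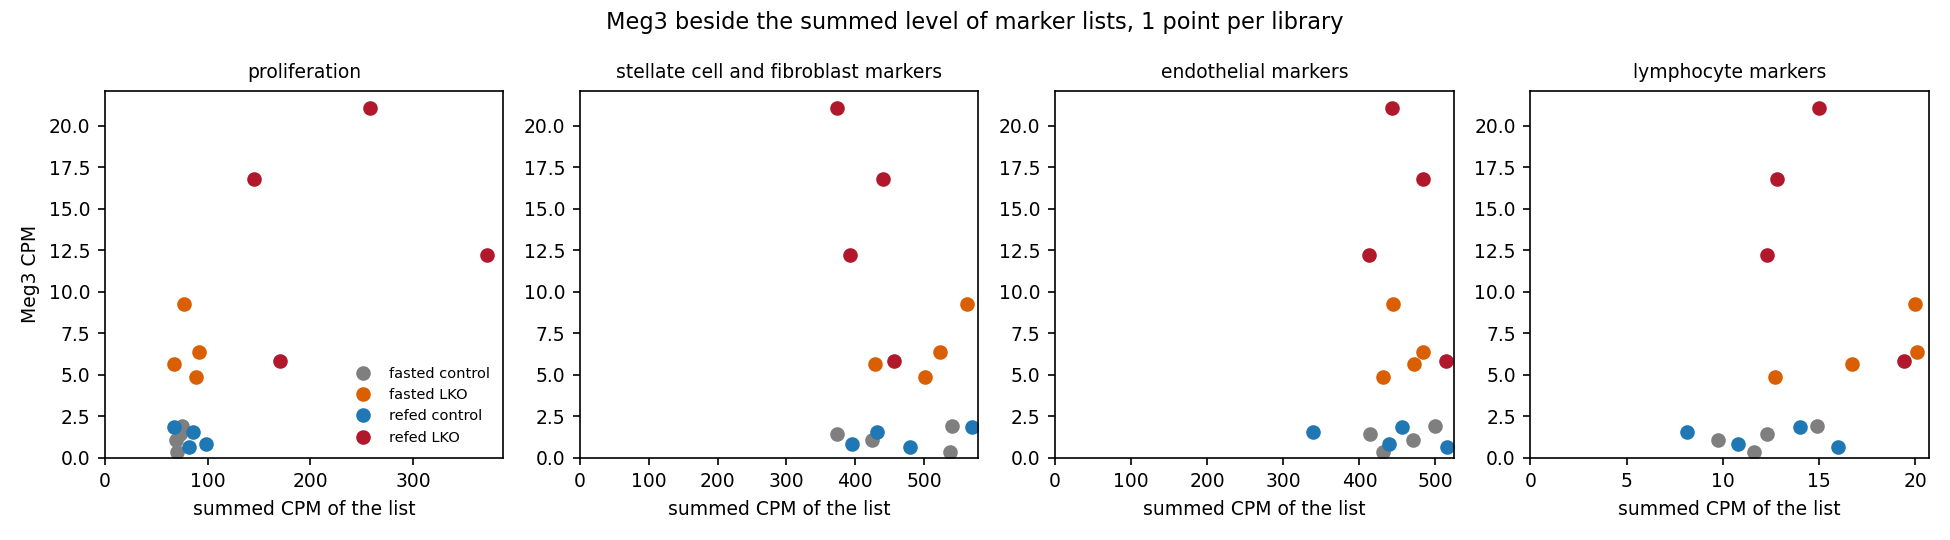
Meg3 CPM (vertical axis) beside the summed CPM of the proliferation, stellate cell and fibroblast, endothelial and lymphocyte lists (horizontal axes), 1 point per library. Refed LKO libraries stand apart on the proliferation axis at 145 to 372 CPM, and on the lymphocyte axis S44, S45 and S47 of fasted LKO and S54 of refed LKO lie above all 8 control libraries.

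The genes most like Meg3 over the 16 libraries, by Pearson's r of log2 CPM among 12758 named genes, were Igha and Ighg2c, both higher in LKO as given above, Skp1, a ubiquitin ligase subunit, Rian and Ube2l6, an interferon-induced conjugating enzyme. Their r ran from 0.9 to 0.91 and from 0.34 to 0.47 once each group's mean had been subtracted. The likeness is thus mostly a likeness of group means, and the libraries share their depth scaling. Among the other genes described here, r with Meg3 was 0.54 for Peg3, 0.41 for H19, 0.29 for Afp and -0.25 for Cdkn1c, and between -0.29 and 0.22 after subtraction.

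Afp was most like Pomk, Dennd10, Rfk, Golim4 and Gla, at r of 0.83 to 0.85, and of 0.7 to 0.77 after subtraction of the group means. None of these 5 was called between genotypes in either state by edgeR. After subtraction Afp and Cdkn1c had an r of 0.61, where it had been -0.22 before. H19 and Cdkn1c had an r of 0.58 after and 0.51 before. Peg3 and Cdkn1c had an r of -0.52 after and -0.02 before. These pairs were named with the values of all pairs in view. These values are descriptions over 16 libraries.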

How the data were processed

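Poly-A RNA of mouse liver was sequenced in 16 libraries. Reads were aligned with HISAT2 2.0.5 to mm39, per the submitters' processing notes. The counting tool, its use of strand and the annotation are not given in the sources used here, so reads from overlapping antisense genes cannot be told apart. The authors deposited raw counts per gene in 4 tables, one for each pair of groups, with gene lengths, log2 fold changes, p-values and adjusted p-values, the last 3 of which are not printed. The tables' other per-library columns, 64 in number, were left out.

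Count columns carry the names S40 to S55, and the group heading that a library's tables share gave its group. Tables were joined on gene identifier. No count differed between tables, and 3148 genes absent from a library's tables were set to 0 there. Coordinates are the deposited ones. RefSeq sequences are on GRCm38.p6, and microRNAs were assigned to host genes by GENCODE M21 spans on that build.

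Counts were fitted in R 4.3.3 with edgeR 4.0.16 (filterByExpr, TMM factors of 0.941 to 1.07, glmQLFit with the 4 groups as one factor, glmQLFTest), and genes with a Benjamini-Hochberg adjusted p under 0.05 over all genes tested are named as called. SE is the log2 fold change over the square root of F. Correlations used log2 CPM with a prior count of 2. The script was tested on simulated data. Alternatives were upper quartile scaling, library totals alone, DESeq2 1.42.0, limma-voom (limma 3.58.1), no filter, a mean of 5 CPM, only the groups compared, and each library left out. The genes and lists were chosen with earlier results of these data known. Most genes named from other lists were called in at least 1 contrast or are defining markers or known regulators of the 10 genes, the last chosen after their values were seen. Grb10, Igf2r, Mest, Cd24a, Prom1 and Dio3os were named outside this rule with their values in view, and were not called. Igha and Ighg2c, which headed the ranking by likeness to Meg3, were also named with their values in view. The 95% intervals of log2 differences are normal ones from the SE.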

Additional observations from a re-analysis of the deposited data

Results flagged for a closer look

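Dixon's 95% critical share of a group's range was set against the gap between an end library and the nearest other. It was exceeded in 4 of 37 pairs of a gene and a group of 4 libraries with differing values. The rate of about 1 in 20 by chance holds for normally spread values and not for counts near 0. Rian was at 0.729 CPM (13 counts) in S46, the lowest fasted LKO library, with the others at 1.37 to 1.41 CPM. Mirg was at 1.73 CPM (40 counts) in S55, the highest refed LKO library, with the others at 0.307 to 0.523 CPM. S42 of the fasted control group held the only counts of its group for 2 genes, at 0.0632 CPM (1 count) for Mirg and 0.316 CPM (5 counts) for Dlk1. The other 3 fasted control libraries had 0 counts of both. The gap was then the whole range whatever the count in S42, so these 2 flags followed from the zeros.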

How the results depend on the processing

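The 35 fitted results of the 7 genes were recomputed under the alternatives, giving 763 values, of which 707 kept direction and side of the threshold, 29 lost a call, 6 gained one and 21 changed sign. None of the 8 called results changed sign. With 1 library left out, the number of genes called was 2 to 3 in fasted livers, 2 in refed livers, 0 to 1 for refeeding in control, 1 to 3 for refeeding in LKO and 0 for the interaction. The filter at a mean of 5 CPM left Meg3 alone to test, and 1 gene was called in fasted, in refed and in LKO refeeding. With only the 2 groups compared 1 gene was called for refeeding in LKO (Rian) and 1 for refeeding in control (Cdkn1c), and with DESeq2 1 in the latter (Cdkn1c). The cause was not tested. Signs changed on leaving out a library for values near 0 or widely spread: the refeeding change in control ran from -0.32 to 0.3 for Meg3 and from -0.5 to 1.0 for Rian, and was 0.01 for Meg3 with library totals alone and 0.19 for Rian with limma-voom. Between genotypes, H19 ran from -0.03 to 1.74 and Cdkn1c from -0.55 to 0.05 in fasted livers, and Gpc3 from -0.27 to 0.44 and Cdkn1c from -0.15 to 0.03 in refed livers. The interaction ran from -0.09 to 1.69 for H19, -0.03 to 0.28 for Afp and -0.1 to 0.5 for Cdkn1c. The ratio of Mirg without S55 was added after the data were seen. Without S44, also added after the data were seen, the median log2 difference in fasted LKO was -0.26 for the further fetal list and -0.18 for the cholangiocyte list. Of 84 results of other genes, 48 kept their call throughout, 36 lost it at least once and 0 changed sign. No paired analysis was possible because the count columns carry no replicate number. Counts under 10 in many libraries limit Mirg, Dlk1, Igf2 and the control values of Rian.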
